A study of Mus musculus with 12 samples.

Results

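The cells described here are mature oligodendrocytes of the mouse hippocampus, the glia that wrap axons in myelin, as grouped by the authors into their cluster 2. They were taken as every cell that the authors' deposited annotation calls an oligodendrocyte and places in that cluster, which gave 1830 cells of 4677 oligodendrocytes and 19834 cells in all. The other oligodendrocytes were 1381 cells of cluster 7, 1032 of cluster 8 and 434 of cluster 11. The tissue came from female C57/BL6J mice, 9 weeks old, and was dissociated into single cells on day 22. Cisplatin stim mice received cisplatin, a platinum drug that crosslinks DNA, together with 40 Hz sound and light flicker for 1 h a day over 21 days. Cisplatin nonstim mice received the drug without the flicker, PBS stim mice received phosphate-buffered saline with the same 40 Hz sessions, and PBS nonstim mice received saline alone. Each group has 3 libraries, of which replicate 1 holds 2 hippocampi of 1 animal and replicates 2 and 3 hold 4 hippocampi pooled from 2 animals. Replicate 1 of all groups carries another prefix in its library name than replicates 2 and 3, and the text speaks of a first batch (replicate 1) and a second batch (replicates 2 and 3).

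Oligodendrocytes arise from precursors (OPC) that carry Pdgfra and Cspg4, pass through a newly formed stage, and then express the proteins of compact myelin and of the glial contact with the axon. Mag and Mog are adhesion and surface proteins of the myelin sheath, and Ermn is a cytoskeletal protein of mature oligodendrocytes. Mature cells are known to differ along an axis that runs from Klk6, S100b and Hopx at one end to Ptgds and Il33 at the other, and they carry the glucocorticoid receptor.

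The label of the cells held in the data. A molecule (UMI) of Mag was found in 99.2% of the cells, of Mog in 98.7% and of Ermn in 98.3%, and at 2000 UMIs per cell, with 134 shallower cells left out, the shares were 99.2%, 94.5% and 96.2%. Microglia, which should lack these genes, had them in 17.1%, 2.23% and 2.63% of cells, and in 5.87%, 0.420% and 0.682% at 2000 UMIs, at median depths of 6916 UMIs in cluster 2 and 6123 in microglia. The genes highest over all cells that are not oligodendrocytes included Opalin, Cldn11, Mog, Ermn, Mag, Nkx6-2, Aspa, Tspan2 and Tmem88b, all genes of the mature myelinating cell. Markers of OPC summed to at most 33.9 CPM (counts scaled to equal library depth) in any library, against 4635 CPM in OPC themselves, and all 5 lay under 10 CPM. Cluster 2 is thus a group of mature oligodendrocytes by its markers, as its label says.

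Libraries of the first batch stand apart and hold few of these cells. Cluster 2 had 45, 93 and 124 cells in Cisplatin stim libraries, 54, 233 and 131 in Cisplatin nonstim, 20, 150 and 288 in PBS stim, and 56, 354 and 282 in PBS nonstim libraries. Their summed depth ranged from 65704 UMIs in PBS stim 1 to 2582626 in PBS nonstim 2. First-batch cells had a median of 3187 UMIs, of which 21.3% were mitochondrial, and 49.4% unspliced molecules, against 7104 UMIs, 5.57% and 31.7% in the second batch. Cisplatin stim 1 was an exception in depth, with 8082 UMIs. Its 13.4% mitochondrial UMIs still lay above every second-batch library, of which Cisplatin stim 2 was highest at 7.16%. In the second batch PBS stim 3 was shallow at 3503 UMIs. Transcripts that resemble ribosomal RNA (Gm42418, AY036118 and Lars2) followed the drug in the second batch: they made up 0.319% to 0.564% of UMIs in the 4 cisplatin libraries and 1.54% to 3.18% in the 4 PBS libraries. In the first batch the share was 0.210% to 0.378% in all 4 libraries. Of the 1830 cells 13 carried a barcode that also occurs in another library, and 1 barcode occurred in more than 1 library within the cluster.

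**Figure D1:**
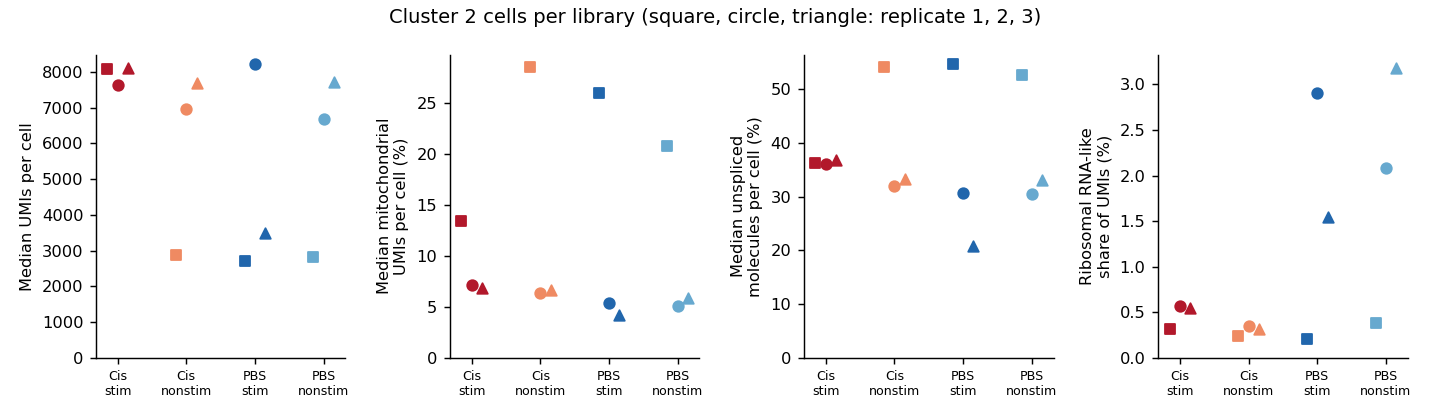
Cluster 2 cells by library: median UMIs per cell, median percent of mitochondrial UMIs, median percent of unspliced molecules and percent of ribosomal RNA-like UMIs in the summed counts, with 1 point a library. First-batch libraries (squares) are shallow except Cisplatin stim 1, and all of them, that library included, are higher in mitochondrial UMIs than the second batch. Second-batch PBS libraries lie at 1.54% to 3.18% of ribosomal RNA-like UMIs.

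Against the other oligodendrocytes together, cluster 2 was higher in Ptgds and Opalin and low in immediate early genes. These values are a description without a test, since the same cells and genes made the clusters. Ptgds, which makes prostaglandin D2, averaged 21646 CPM over the 12 libraries in cluster 2 and 11782 CPM in the other oligodendrocytes of the same libraries, and was higher in 12 of 12. The median log2 ratio was 1.71 for Cntn1, an axonal adhesion molecule, 1.56 for the chemokine Cxcl12 and 1.19 for Itih3, which encodes a heavy chain that binds hyaluronan. Slc9a3r2, Man1a, Ttyh1, Fam13c, Bmp1 and Prickle1 completed the 10 genes with the highest ratio. Opalin, a membrane protein of myelinating cells, averaged 1300.1 CPM against 785 CPM and was higher in 11 of 12 libraries. Most of this lay in the contrast with cluster 8, where the median log2 ratio was 3.45 for Ptgds and 1.63 for Opalin. Against cluster 7 the ratios were 0.48 and 0.55, and against cluster 11 they were -0.07 and -0.11, with Ptgds higher in 0 of 4 libraries and Opalin in 1 of 4.

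The 10 lowest genes held 7 immediate early genes, transcription factors that rise within minutes of a stimulus or of tissue dissociation. Fos averaged 273 CPM in cluster 2 and 2339 CPM in the others, Egr1 90.3 and 701 CPM, and Junb 86.4 and 405 CPM, each lower in 12 of 12 libraries. Fosb, Egr2, Ier2 and Klf4 were the other 4. Enpp6, 1 of 5 listed markers of newly formed cells, averaged 18.1 CPM against 162 CPM, and S100b and Hopx were also among the 10 lowest. Summed over cells, Enpp6 was 18.4, 33.5 and 318 CPM in clusters 2, 7 and 8. The other listed markers did not follow it: Bcas1 was 269, 423 and 295 CPM and Tcf7l2 57.8, 68.9 and 54.5 CPM. Bmp4 and Neu4 lay under 10 CPM in each. Klk6, a secreted protease, was nearly absent from cluster 2, with 1.02 CPM against 38.0 CPM.

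The other clusters differed from cluster 2 in separate ways. Summed over its cells, cluster 7 had 4149 CPM of Fos against 265 CPM in cluster 2, with S100b at 38.9 against 28.0 CPM. Cluster 8 had 611 CPM of S100b, 197 CPM of Hopx and 82.7 CPM of Klk6, against 28.0, 11.4 and 1.39 CPM in cluster 2, and its Ptgds was 3075 CPM against 22041 CPM. Mag, the shared marker, differed little in these sums, at 3013 CPM in cluster 2, 3035 in cluster 7, 3141 in cluster 8 and 2925 CPM in cluster 11. Within the 4 libraries compared with cluster 11, however, Mag averaged 4569 CPM in cluster 2 and 2945 CPM in cluster 11, higher in 3 of 4. Ermn averaged 1720 CPM in cluster 2 and 2259 CPM in the other oligodendrocytes together. It was higher in 0 of 12 libraries, against 8 of 12 for Mag and 9 of 12 for Mog. Cluster 11 is made almost wholly of first-batch cells, 432 of 434.

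**Figure D2:**
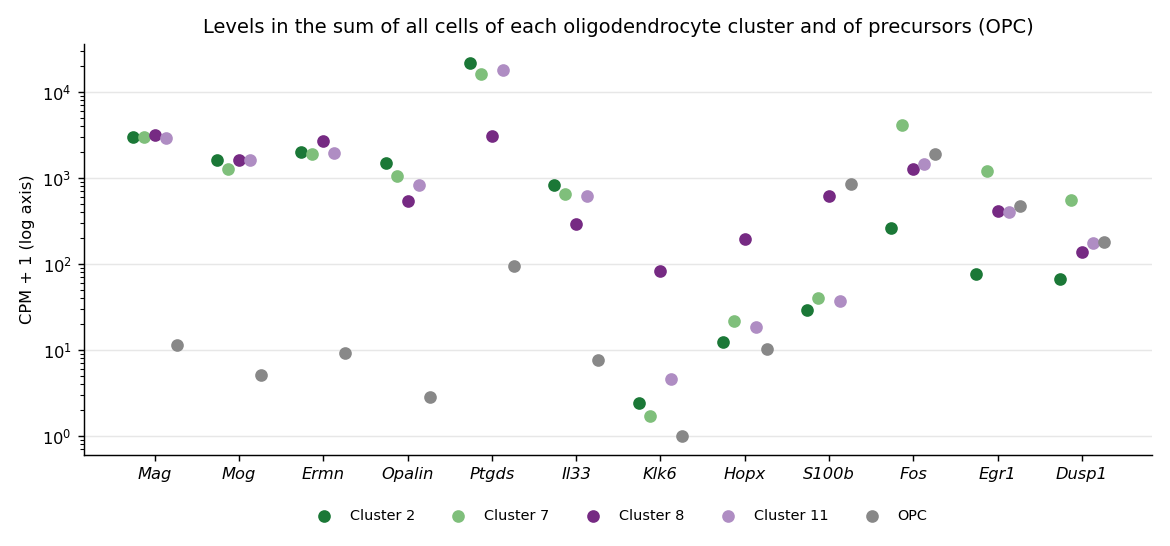
CPM plus 1 on a log axis for 12 genes, from the summed counts of all cells of each oligodendrocyte cluster and of oligodendrocyte precursors (OPC), with 1 point per cluster and no error. Mag lies between 2925 and 3141 CPM and Mog between 1288 and 1639 CPM in the 4 clusters, Fos is lowest in cluster 2 of the 4 at 265 CPM, and Klk6, Hopx and S100b are highest in cluster 8 among the 4.

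The promoters of 3 genes named in the comparisons that follow are shown. Mt1 codes for a metallothionein, Fkbp5 for a co-chaperone of the glucocorticoid receptor and Cdkn1a for p21, which halts the cell cycle. Each is the 250 bases before the RefSeq start site on GRCm38.p6, 5′ to 3′ on the gene's strand: chr8:94178839-94179088 on the plus strand for Mt1, chr17:28486150-28486399 on the minus strand for Fkbp5 and chr17:29090729-29090978 on the plus strand for Cdkn1a, the first of 2 starts listed for it. Capitals mark the motif found in each.
Mt1: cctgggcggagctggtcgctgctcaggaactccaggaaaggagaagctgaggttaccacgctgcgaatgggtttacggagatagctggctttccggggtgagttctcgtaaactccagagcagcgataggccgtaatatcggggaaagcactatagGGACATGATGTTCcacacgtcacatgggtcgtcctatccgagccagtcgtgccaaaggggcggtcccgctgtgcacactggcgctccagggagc
Fkbp5: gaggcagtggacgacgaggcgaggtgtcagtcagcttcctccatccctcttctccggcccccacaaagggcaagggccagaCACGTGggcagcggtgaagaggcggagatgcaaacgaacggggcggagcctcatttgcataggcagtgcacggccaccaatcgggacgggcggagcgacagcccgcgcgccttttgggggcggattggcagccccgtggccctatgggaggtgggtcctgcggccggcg
Cdkn1a: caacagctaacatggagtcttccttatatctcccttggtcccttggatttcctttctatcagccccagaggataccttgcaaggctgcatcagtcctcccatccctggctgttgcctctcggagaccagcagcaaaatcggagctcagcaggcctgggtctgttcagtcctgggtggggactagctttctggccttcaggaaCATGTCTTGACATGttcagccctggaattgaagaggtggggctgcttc
The capitals in Mt1 are a match to G, any base, ACA, any 3 bases, TGT, any base, C, the palindromic site of the glucocorticoid receptor, 94 bases before the start. This motif was in 0.463% of 27025 RefSeq promoters and in 1 of the 18 promoters matched from the glucocorticoid list below, that of Mt1 itself. In Fkbp5 they are the E-box CACGTG, which 7.24% of promoters hold and 3 of those 18 (Dusp1, Fkbp5 and Per1). In Cdkn1a they match CATG, any 6 bases, CATG, a pair of p53 half-site cores, found in 0.770% of promoters and in 1 of 19 matched from the p53 list; this motif was searched after the sequence had been seen. All 3 motifs read the same on both strands, each share counts windows of 300 bases that reach 50 bases past the start, and a match is a description of letters, not a bound site.

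The first comparison asks what cisplatin changed without stimulation. In Cisplatin nonstim against PBS nonstim, cluster 2 oligodendrocytes had more Itgad, Fkbp5, Rbm3, Dusp1, Ogdhl, Gstm1 and Arrdc2, and less Dynll1, Lars2, Shtn1 and Serpinb1a. Of 8550 genes tested, 234 were higher (2.74% of those tested) and 184 lower (2.15%) at an adjusted p under 0.05 in edgeR's quasi-likelihood test, 418 or 4.89% in either direction, and DESeq2 called 204. Of the glucocorticoid response list 13 of 20 rose, and of 30 myelin genes 2 rose and 1 fell.

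The groups do not overlap in 6.73% of genes that are higher and 7.3% that are lower, beside which the following values stand. Itgad, which encodes a leukocyte integrin alpha subunit (chr7:128154376-128223816, plus strand, GENCODE M21), had 135, 129 and 81.4 CPM in Cisplatin nonstim libraries, against 35.2, 17.6 and 16.5 CPM in PBS nonstim libraries. The groups did not overlap (log2 fold change 2.63 ± 0.21, adjusted p = 3.4e-10). The first-batch pair was apart as well, on 20 UMIs in Cisplatin nonstim 1 and 6 in PBS nonstim 1. Itgad overlaps Gm17831 on the same strand and shares 0.175 of its 31-base words with other genes, which makes its count less certain. Microglial markers, 6 genes in all, summed to 406, 60.4 and 53 CPM in the same Cisplatin nonstim libraries, against 44.2 to 199.7 CPM in PBS nonstim libraries and 22928 CPM in microglia, with 4 of the 6 under 10 CPM; their part in the Itgad values was not tested. The 239 Itgad UMIs of Cisplatin nonstim 2 were spread over cells, with 3.77% in the top cell, whereas the top cell of Cisplatin nonstim 1 held 30% of its 20.

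Fkbp5 had 6.77, 46.9 and 41.6 CPM in Cisplatin nonstim libraries, against 11.7, 9.17 and 4.54 CPM in PBS nonstim libraries. Cisplatin nonstim 1 lay within the PBS range and the other 2 libraries lay above it (log2 fold change 2.55 ± 0.29, adjusted p = 4.5e-07). Rbm3, an RNA-binding protein induced by mild cold, had 94.8, 362 and 299 CPM in Cisplatin nonstim libraries, against 64.6, 55.8 and 111 CPM in PBS nonstim libraries, again with replicate 1 inside the PBS range (log2 fold change 1.89 ± 0.22, adjusted p = 4.5e-07). Arrdc2, an arrestin-domain gene, behaved alike across libraries: 27.1, 97.6 and 89.9 CPM in Cisplatin nonstim libraries, against 47.0, 32.3 and 25.2 CPM in PBS nonstim libraries (log2 fold change 1.58 ± 0.20, adjusted p = 4.1e-06). In these 3 genes Cisplatin nonstim 1 did not stand apart from the PBS nonstim libraries, whereas for Itgad it did.

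Dusp1, a phosphatase that switches off MAP kinases, had 135, 110.0 and 109 CPM in Cisplatin nonstim libraries, against 58.7, 32.3 and 30.1 CPM in PBS nonstim libraries, with no overlap (log2 fold change 1.77 ± 0.18, adjusted p = 2.6e-08). Its level within cluster 2 is low by comparison, with a median log2 ratio to the other oligodendrocytes of -2.10, just outside the 10 lowest genes of the cluster. The Dusp1 values may therefore depend on the cluster's border too, which was not tested, and the glucocorticoid counts below include this gene. Ogdhl, a relative of the oxoglutarate dehydrogenase subunit, had 6.77, 59.8 and 39.8 CPM in Cisplatin nonstim libraries, against 5.87, 6.60 and 4.54 CPM in PBS nonstim libraries, apart but close in replicate 1, where each value rests on 1 UMI (log2 fold change 3.09 ± 0.31, adjusted p = 2.6e-08). Gstm1, a glutathione transferase, had 94.8, 148 and 153 CPM in Cisplatin nonstim libraries, against 82.2, 47.0 and 54.9 CPM in PBS nonstim libraries, and the groups did not overlap (log2 fold change 1.47 ± 0.17, adjusted p = 4.5e-07). C4b, a complement component that shares 0.483 of its 31-base words with other genes, had 94.8, 93.3 and 85.2 CPM in Cisplatin nonstim libraries, against 58.7, 19.4 and 25.6 CPM in PBS nonstim libraries (log2 fold change 1.90 ± 0.25, adjusted p = 4.6e-06).

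Among the genes that fell, Dynll1, a light chain of the dynein motor, had 142, 81.4 and 95.6 CPM in Cisplatin nonstim libraries, against 182, 302 and 251 CPM in PBS nonstim libraries (log2 fold change -1.50 ± 0.19, adjusted p = 4.1e-06). All 3 Cisplatin nonstim libraries were below all PBS nonstim libraries. Shtn1, a protein of axon outgrowth, had 129, 98.1 and 107 CPM in Cisplatin nonstim libraries, against 223, 201 and 199 CPM in PBS nonstim libraries (log2 fold change -0.96 ± 0.16, adjusted p = 0.00021), and Serpinb1a, a protease inhibitor, had 74.5, 77.6 and 117 CPM in Cisplatin nonstim libraries, against 217, 186 and 235 CPM in PBS nonstim libraries (log2 fold change -1.20 ± 0.21, adjusted p = 0.00058). Nkain2, Kctd4 and the integrin beta subunit gene Itgb1 also fell without overlap, by log2 fold changes of -0.94 ± 0.16, -1.08 ± 0.19 and -0.83 ± 0.15. Shtn1, Serpinb1a, Nkain2, Kctd4 and Itgb1 were each no longer called without Cisplatin nonstim 2.

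Lars2, the mitochondrial leucyl-tRNA synthetase gene that is counted with the ribosomal RNA-like transcripts, had 278, 205 and 148 CPM in Cisplatin nonstim libraries, against 405, 1277 and 1605 CPM in PBS nonstim libraries (log2 fold change -2.54 ± 0.30, adjusted p = 8.7e-07). AY036118 and Gm42418, which match ribosomal RNA, gave log2 fold changes of -3.88 ± 0.52 and -2.07 ± 0.36. The gap in Lars2 was wide in the second batch and small in the first. With that share as a covariate 0 of 8550 genes were called, and 47 of 54 called genes named by rule kept their direction. The share and the drug cannot be told apart in the second batch, and its part in the other results was not tested.

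The glucocorticoid response list holds 20 genes, all of which passed the filter on low counts. In Cisplatin nonstim 13 rose and none fell, beside 2.74% and 2.15% of all genes, and the list's median log2 fold change was 1.14, against -0.00 over all genes tested. Those that rose were Fkbp5, Dusp1, Arrdc2, the lipid droplet protein Plin4 (2.07 ± 0.30), the mTORC1 inhibitor Ddit4 (1.28 ± 0.19) and Cdkn1a (2.89 ± 0.47). The others that rose were the transcription factors Zbtb16, Hif3a and Klf9, the clock gene Per1, the kinase Sgk1, Nfkbia and Sult1a1. Sult1a1 rests on 16 UMIs in Cisplatin nonstim and 1 in PBS nonstim, a ratio of shares of 27.2 with a 95% counting interval of 4.23 to 1141. Mt1, Mt2, Pdk4, Errfi1, Tsc22d3 and Glul were not called, and neither was Nr3c1, the receptor itself, at -0.29 ± 0.15. In the other oligodendrocytes 13 of the 20 were higher as well, with a median of 0.83.

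Of 30 myelin genes tested, Sirt2, a deacetylase of the sheath, and Mobp, a compact myelin protein, rose and Cryab, a small heat shock protein, fell. These counts stand beside 2.74% of all genes higher and 2.15% lower. Mobp had 2689, 3659 and 3355 CPM in Cisplatin nonstim libraries, against 2114, 2172 and 2125 CPM in PBS nonstim libraries (log2 fold change 0.60 ± 0.17, adjusted p = 0.041). Cryab had 2263, 2233 and 2681 CPM in Cisplatin nonstim libraries, against 4052, 4434 and 3578 CPM in PBS nonstim libraries (log2 fold change -0.75 ± 0.17, adjusted p = 0.009), the groups apart in both genes. The call of Mobp ended when any of 8 of the 12 libraries was left out and with the replicate block (0.59, adjusted p = 0.068), that of Sirt2 without any of 5 libraries, and that of Cryab without PBS nonstim 2 or Cisplatin nonstim 2. The list's median was 0.01, and Mag (0.36 ± 0.23), Mog (0.20 ± 0.18) and Mbp (0.21 ± 0.17) were not called.

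Of all genes tested 2.74% were higher and 2.15% lower, and the counts of the following lists are read against these shares. In the sterol synthesis list Hmgcs1 (-0.66 ± 0.17), Cyp51 (-0.74 ± 0.21) and Msmo1 (-0.59 ± 0.18) fell, 3 of 23 tested, and none rose (median -0.23). With the replicate block Cyp51 (adjusted p = 0.053) and Msmo1 (adjusted p = 0.073) were no longer called. Of 19 tested glutathione and Nrf2 genes, Gstm1, Gstm7, Gstp1 and Keap1 rose and none fell, Gstp1 without a call under the replicate block (adjusted p = 0.069) and Gstm7 with the opposite sign once the ribosomal RNA-like share was a covariate (-0.12). Of 16 tested p53 targets, Cdkn1a, Btg2 (1.64 ± 0.26) and Bbc3 (1.52 ± 0.39) rose and none fell, with a median of 0.05. The call of Cdkn1a ended without Cisplatin nonstim 2, and that of Bbc3 without any of 4 libraries. Btg2, like Dusp1 of the glucocorticoid list, is also in the list of immediate early and dissociation genes. Summed over cells, Btg2 was 47.8 CPM in cluster 2 and 439 CPM in cluster 7, and Dusp1 was 65.2 and 562 CPM. The values of both may therefore depend on the cluster's border as well, which was not tested. All 18 tested members of the immediate early and dissociation list lay above 0 and 8 were called higher (median 0.69). Of these 8 calls 6 are genes that define the cluster, so the list's counts and median depend on the cluster's border and are not read as a result. The part of dissociation in these values was not tested. Of 13 mitochondrially encoded genes 3 fell, mt-Nd6, mt-Nd4l and mt-Atp8, with a median over the list of 0.24, and mt-Atp8 was not called under the replicate block (adjusted p = 0.053) and lay at 0.014 with the share as a covariate. The counts of mt-Nd4l, with 0.989 of its 31-base words shared and a same-strand overlap with mt-Nd4, and of mt-Atp8, which overlaps mt-Atp6, are uncertain. Of 10 tested genes of crosslink and excision repair 0 were called, beside 4.89% of all genes, a count too small to say anything of these pathways.

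Ttr, the thyroxine carrier of the choroid plexus and the 1 tested gene of 5 choroid plexus markers, was also higher, with 1118, 1887 and 197 CPM in Cisplatin nonstim libraries, against 29.4, 423 and 108 CPM in PBS nonstim libraries (log2 fold change 2.47 ± 0.50, adjusted p = 0.003), and gave 2.33 ± 0.53 in the other oligodendrocytes. The groups overlapped, and 1 cell held 925 of the 3500 Ttr UMIs of Cisplatin nonstim 2 and another 932 of the 1153 of PBS nonstim 2. The call ended without Cisplatin nonstim 2, and the part of RNA from other cells in the cisplatin results was not tested.

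Genes that define the cluster are given as levels without a test, because the cluster's border depends on them. Cxcl12 had 135, 77.1 and 32.2 CPM in Cisplatin nonstim libraries, against 17.6, 4.04 and 8.67 CPM in PBS nonstim libraries, and Ptgds, Itih3 and the immediate early genes Fos, Fosb, Egr1, Egr2, Junb and Klf4 also belong to this class. They make up 9 of the 418 calls. Leaving out Cisplatin nonstim 2 took the count of calls to 42, and leaving out Cisplatin nonstim 3, PBS nonstim 2 or PBS nonstim 3 took it to 133, 130 and 90 calls.

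**Figure D3:**
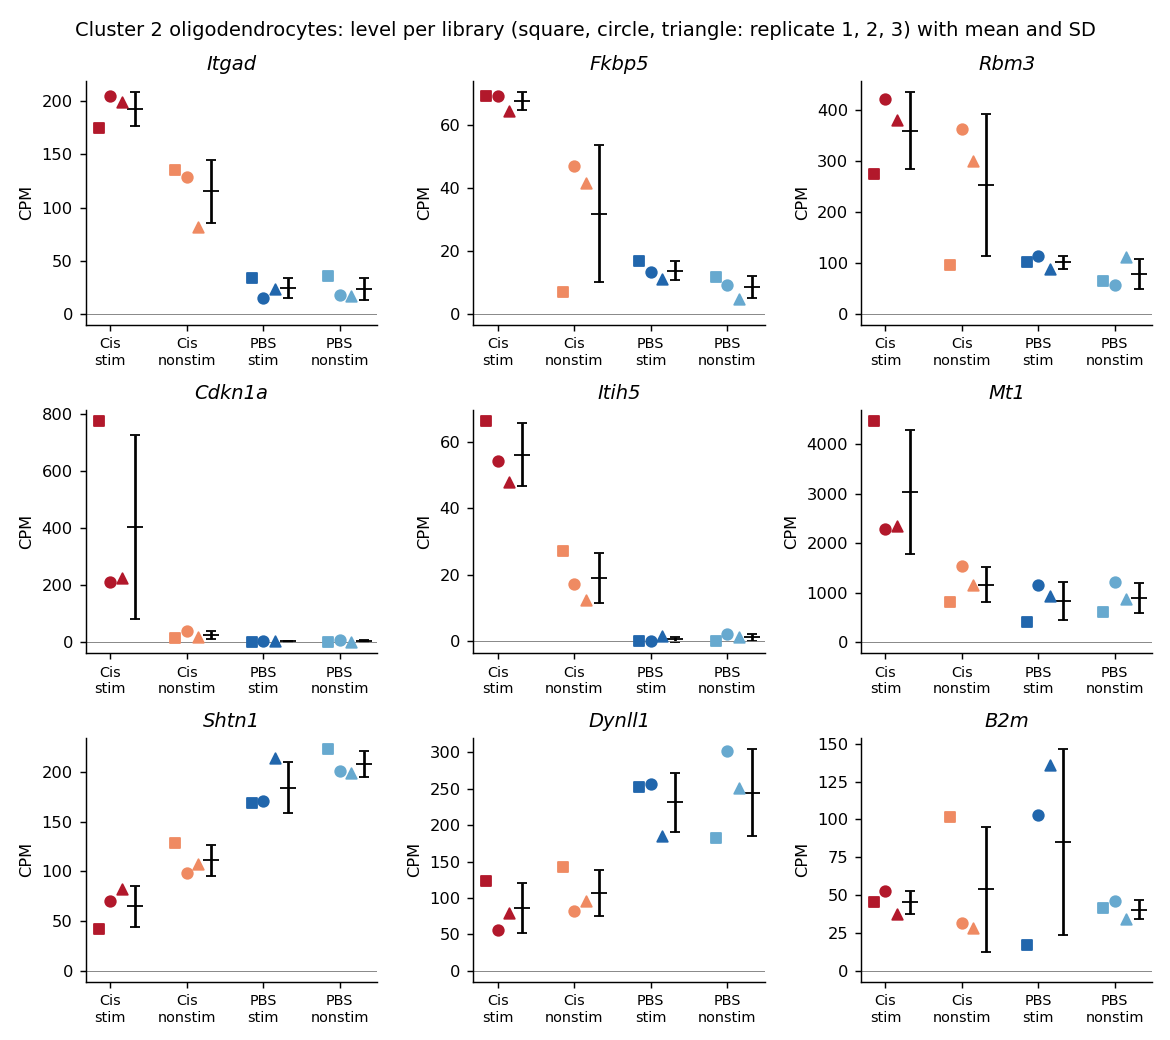
CPM in cluster 2 for 9 genes, with 1 point per library by group and, beside the points, the mean and SD of the 3 libraries. Itgad is higher in every cisplatin library than in every PBS library, Cdkn1a and Mt1 are highest in Cisplatin stim, and B2m is high in PBS stim 2 and 3 and in Cisplatin nonstim 1.

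The next comparison asks what stimulation changed in mice given cisplatin. Cdkn1a rose most, together with the metallothioneins Mt1 and Mt2, Itih5, Sgk3, Tma16 and Phyhd1, and few genes were called in all. Of 8550 genes 22 were higher (0.257%) and 2 lower (0.0234%), 24 or 0.281% in either direction, with 17 called by DESeq2. The groups do not overlap in 5.72% of genes that are higher and 5.02% that are lower.

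Cdkn1a (chr17:29090976-29100727, plus strand) had 778, 211 and 223 CPM in Cisplatin stim libraries, against 13.5, 39.4 and 17.04 CPM in Cisplatin nonstim libraries, and 0, 2.20 and 2.19 CPM in PBS stim and 0, 6.97 and 0.413 CPM in PBS nonstim libraries. The order of the groups was Cisplatin stim, then Cisplatin nonstim, then the PBS groups, which overlapped each other. A count of 0, here and in the values that follow, allows up to 45.7 CPM in PBS stim 1 and 15.2 CPM in PBS nonstim 1. The increase over Cisplatin nonstim was a log2 fold change of 3.11 ± 0.26 (adjusted p = 4e-10), and the 258 UMIs of Cisplatin stim 1 came from many cells, the top cell holding 8.53%. DESeq2 did not call it, with an adjusted p of 0.058.

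Mt1 (chr8:94179082-94180327, plus strand) had 4475, 2280.0 and 2356 CPM in Cisplatin stim libraries, against 806, 1530.4 and 1155 CPM in Cisplatin nonstim libraries, and 405, 1154 and 925 CPM in PBS stim and 617, 1218 and 864 CPM in PBS nonstim libraries. Its log2 fold change was 1.41 ± 0.26 (adjusted p = 0.0038), and it was no longer called without Cisplatin nonstim 1. Mt2, its neighbour on chromosome 8, had 494, 144 and 147 CPM in Cisplatin stim libraries, against 67.7, 72.8 and 55.8 CPM in Cisplatin nonstim libraries (log2 fold change 1.49 ± 0.26, adjusted p = 0.002). Both metallothioneins bind zinc and copper, and both were highest in Cisplatin stim 1. Of the 12 genes of the metal list 5 were tested, and Mt1 and Mt2 were those that rose, beside 0.257% of all genes.

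Itih5, a hyaluronan-binding heavy chain, had 66.3, 54.0 and 47.8 CPM in Cisplatin stim libraries, against 27.1, 17.3 and 12.3 CPM in Cisplatin nonstim libraries, and 0, 0 and 1.46 CPM in PBS stim and 0, 2.20 and 1.24 CPM in PBS nonstim libraries. The groups ordered as for Cdkn1a (log2 fold change 1.67 ± 0.29, adjusted p = 0.002), and here the gene was also higher in Cisplatin nonstim than in PBS nonstim (log2 fold change 3.15 ± 0.46, adjusted p = 3e-05). Sgk3, a kinase of the SGK family, had 226, 66.6 and 93.8 CPM in Cisplatin stim libraries, against 33.9, 38.3 and 32.2 CPM in Cisplatin nonstim libraries (log2 fold change 1.45 ± 0.24, adjusted p = 0.002), and 17.6, 33.4 and 40.9 CPM in PBS nonstim libraries, which overlapped Cisplatin nonstim. Tma16, whose yeast counterpart takes part in ribosome assembly, had 238, 124 and 124 CPM in Cisplatin stim libraries, against 47.4, 69.0 and 45.4 CPM in Cisplatin nonstim libraries (log2 fold change 1.23 ± 0.19, adjusted p = 0.00075). Phyhd1 had 63.3, 49.0 and 36.5 CPM in Cisplatin stim libraries, against 20.3, 12.9 and 4.73 CPM in Cisplatin nonstim libraries (log2 fold change 2.04 ± 0.33, adjusted p = 0.0015); it shares 0.435 of its 31-base words with other genes, which makes its count less certain.

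Fam107a, which binds actin and is induced by stress, gave 1.39 ± 0.25 on the log2 scale, and Usp50, of the ubiquitin peptidase family, gave 2.03 ± 0.35. Both lost their call without Cisplatin nonstim 2, and Usp50 also without Cisplatin stim 3. The 2 genes called lower were Arl2bp, which binds a small GTPase, and Ttr. Arl2bp had 75.3, 80.4 and 70.4 CPM in Cisplatin stim libraries, against 94.8, 133 and 129.7 CPM in Cisplatin nonstim libraries (log2 fold change -0.74 ± 0.17, adjusted p = 0.033), and 8 of the 12 single libraries ended the call when left out. The call of Ttr ended without PBS stim 1, Cisplatin nonstim 1, Cisplatin nonstim 2 or Cisplatin stim 3. The calls of Cdkn1a, Mt2, Itih5, Sgk3, Tma16 and Phyhd1 held whichever single library was left out, Cisplatin stim 1 included.

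Ttr is given with the other cells of its libraries. In cluster 2 it had 72.3, 354 and 277 CPM in Cisplatin stim libraries, against 1118, 1887 and 197 CPM in Cisplatin nonstim libraries, and 139, 443 and 353 CPM in microglia of the same Cisplatin stim libraries against 787, 1599 and 253 CPM in microglia of the Cisplatin nonstim libraries. Choroid plexus cells made up 7.96%, 29.7% and 19.2% of the Cisplatin stim libraries and 10.8%, 38.0% and 11.4% of the Cisplatin nonstim libraries. The part of such RNA from other cells in the Ttr values was not tested.

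Of the glucocorticoid list 7 of 20 rose (Cdkn1a, Mt1, Mt2, Arrdc2, Ddit4, Nfkbia and Plin4) and none fell, beside 0.257% of all genes, with a median log2 fold change of 0.81 against 0.01 over all genes. Arrdc2 had 214, 171 and 164 CPM in Cisplatin stim libraries, against 27.1, 97.6 and 89.9 CPM in Cisplatin nonstim libraries (log2 fold change 0.98 ± 0.18, adjusted p = 0.0027). Ddit4 had 383, 338 and 323 CPM in Cisplatin stim libraries, against 122, 166 and 227 CPM in Cisplatin nonstim libraries (log2 fold change 0.93 ± 0.18, adjusted p = 0.0042). The Cisplatin stim libraries lay above all Cisplatin nonstim libraries in both genes. Fkbp5 was at 69.3, 69.1 and 64.3 CPM in Cisplatin stim, and its difference from Cisplatin nonstim, 0.69 ± 0.23 (adjusted p = 0.4), did not pass. Of the p53 list only Cdkn1a was called among 16 tested members, and none of the 30 myelin genes was called.

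Cisplatin against PBS among stimulated mice gave the largest count of the 4 comparisons: 278 genes higher (3.25%) and 230 lower (2.69%) of 8550, 508 or 5.94% in either direction, with 393 called by DESeq2, and groups that do not overlap in 11.6% of genes that are higher and 7.47% that are lower. It shares its Cisplatin stim libraries with the comparison above and its values are given beside it. Cdkn1a led with a log2 fold change of 6.74 ± 0.43 (adjusted p = 3.3e-13), on 6 UMIs in the 3 PBS stim libraries. Itih5 had 120 UMIs in Cisplatin stim and 2 in PBS stim, a ratio of shares of 72.2 with a counting interval of 19.5 to 603.

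Itgad had 175, 205 and 199 CPM in Cisplatin stim libraries, against 33.7, 14.7 and 23.4 CPM in PBS stim libraries (log2 fold change 3.32 ± 0.23, adjusted p = 1.8e-12). Tubb3, a beta tubulin best known from neurons, had 142, 188 and 139 CPM in Cisplatin stim libraries, against 0, 33.0 and 27.0 CPM in PBS stim libraries (log2 fold change 2.46 ± 0.21, adjusted p = 6.2e-10), while the 6 neuron markers summed to 14.8 to 45.2 CPM in Cisplatin stim and 8.08 to 33.7 CPM in PBS stim libraries, against 8840 CPM in neurons. In both genes every Cisplatin stim library was above every PBS stim library. Among the genes that fell, Acadl, an acyl-CoA dehydrogenase of fatty acid oxidation, had 36.2, 37.7 and 38.2 CPM in Cisplatin stim libraries, against 84.3, 94.0 and 99.99 CPM in PBS stim libraries (log2 fold change -1.36 ± 0.20, adjusted p = 1.7e-05). Fabp5, a fatty acid carrier, had 154, 344 and 394 CPM in Cisplatin stim libraries, against 371, 1036 and 916 CPM in PBS stim libraries (log2 fold change -1.38 ± 0.20, adjusted p = 8.5e-06), with overlap through the low value of PBS stim 1. Shtn1 (-1.42 ± 0.18), Dynll1 (-1.52 ± 0.21), Gng11 (-1.33 ± 0.20) and Serpinb1a (-1.51 ± 0.23) fell here as well.

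In this comparison 3.25% of all genes tested were higher and 2.69% lower, and the counts of the following lists are read against these shares. The glucocorticoid list had 16 of 20 members higher and none lower, with a median of 1.75 against 0.01 over all genes. Mt1 (1.82 ± 0.27), Mt2 (1.99 ± 0.29) and Pdk4 (2.48 ± 0.55) joined those called without stimulation. Of 30 myelin genes 4 rose and 5 fell. Mobp (1.00 ± 0.18), Nkx6-2 (0.61 ± 0.17), Apod (0.60 ± 0.17) and Sirt2 (0.56 ± 0.17) rose, and those that fell included Ugt8a (-1.09 ± 0.20), Cryab (-0.97 ± 0.17), Car2 (-0.74 ± 0.18) and Tppp (-0.71 ± 0.17). Ugt8a, the enzyme that makes the myelin lipid galactosylceramide, had 232, 443 and 467 CPM in Cisplatin stim libraries, against 876, 811 and 834 CPM in PBS stim libraries. All 3 Cisplatin stim libraries were below all PBS stim libraries (log2 fold change -1.09 ± 0.20, adjusted p = 0.00049). In the sterol list, of 23 tested, Cyp51 (-1.29 ± 0.25), Hmgcs1 (-0.81 ± 0.18) and Idi1 (-0.79 ± 0.21) fell while Insig1 (1.20 ± 0.17), an inhibitor of the pathway, rose.

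Beside 3.25% of all genes higher and 2.69% lower, of 19 tested glycolysis and lactate genes 5 rose (Aldoc, Pdk4, Gapdh, Tpi1 and Aldoa) and the lactate transporter gene Slc16a1 fell. Of 15 tested heat shock genes Cryab, Chordc1 and Hspa1b fell and none rose, and Hspa1b shares 0.680 of its words with near copies. Leaving out PBS stim 3, PBS stim 2 or Cisplatin stim 2 took the 508 calls to 213, 238 and 295. With the ribosomal RNA-like share as a covariate 87 genes were called, Itgad, Cdkn1a, Tubb3, Itih5, Plin4, Arrdc2, Ddit4, Mt1, Mt2, Shtn1 and Acadl among them. Of the 70 called genes named by rule 29 held with this covariate, and of the 13 for stimulation in cisplatin mice 5 held.

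**Figure D4:**
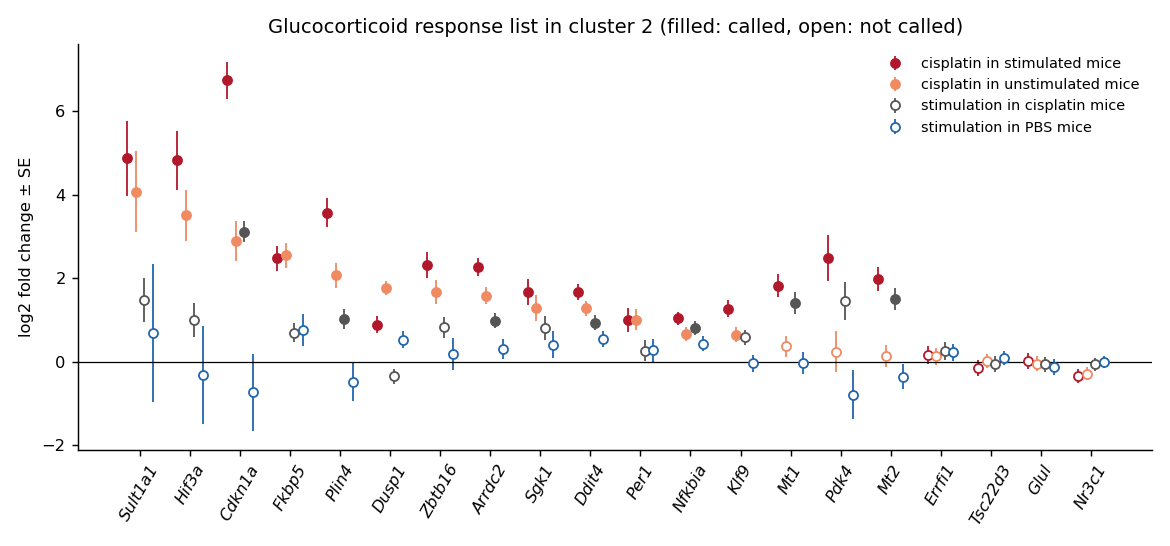
Log2 fold change with its SE in cluster 2 for the 20 genes of the glucocorticoid response list, in 4 comparisons; filled points passed an adjusted p of 0.05 and open points did not. In the 2 cisplatin comparisons 16 and 13 of 20 were called higher, under stimulation in cisplatin mice 7, and in PBS mice none.

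Few genes were called for stimulation in PBS mice, which does not show that little changed. Of 8550 genes 4 were called higher (0.0468%) and 0 lower (0.0%), with 257 at an unadjusted p under 0.05 in edgeR, and DESeq2 called 0, with 107 at that level. The groups do not overlap in 3.06% of genes that are higher and 5.17% that are lower. The 4 were Ifi27l2a and Bst2, which interferon induces, and B2m and H2-D1, the light and a heavy chain of MHC class I.

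B2m had 16.9, 103 and 136 CPM in PBS stim libraries, against 41.1, 46.2 and 33.8 CPM in PBS nonstim libraries (log2 fold change 1.51 ± 0.22, adjusted p = 0.00016). H2-D1 had 0, 101 and 191 CPM in PBS stim libraries, against 70.5, 34.9 and 29.7 CPM in PBS nonstim libraries (log2 fold change 2.03 ± 0.29, adjusted p = 0.00016). Both were high in PBS stim 2 and 3 and low in PBS stim 1, which holds 20 cells, so the groups overlapped. Cisplatin nonstim 1 was also high, with 102 CPM of B2m and 189.7 CPM of H2-D1. Both lost their call without PBS stim 3.

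Ifi27l2a had 0, 126 and 127 CPM in PBS stim libraries, against 11.7, 21.3 and 1.65 CPM in PBS nonstim libraries (log2 fold change 3.33 ± 0.44, adjusted p = 6.6e-05), with the same 2 libraries high. Its level was 18.1, 6.28 and 1.74 CPM in Cisplatin stim and 142, 11.9 and 1.89 CPM in Cisplatin nonstim libraries, so that Cisplatin nonstim 1 was also high. Microglia of PBS stim had 12.7, 56.7 and 20.8 CPM of Ifi27l2a and microglia of PBS nonstim 15.7, 23.6 and 32.6 CPM. Bst2, a membrane protein that tethers viruses, had 16.9, 33.8 and 7.30 CPM in PBS stim libraries, against 11.7, 2.20 and 2.06 CPM in PBS nonstim libraries (log2 fold change 2.99 ± 0.53, adjusted p = 0.006), and 3 single libraries (PBS stim 2, PBS nonstim 2 and PBS nonstim 3) ended the call when left out. None of the 20 glucocorticoid genes, 30 myelin genes or 16 p53 targets tested was called, with medians of 0.14, -0.01 and 0.04 against -0.01 over all genes. With 0.0468% of all genes called, counts of 0 in lists of this size say nothing particular of them.

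Whether the response to stimulation depended on the drug was tested as an interaction, the change under stimulation in cisplatin mice minus that in PBS mice. Of 8550 genes 4 were higher (0.0468%) and 1 lower (0.0117%), 0.0585% in either direction, with 440 at an unadjusted p under 0.05, and DESeq2 called 1. The 5 were Usp50, the ribosomal protein pseudogene Rpl10-ps3 and the predicted genes Gm2000 and Gm49207, which were higher, and Ifi27l2a, which was lower. Cdkn1a gave 3.85 ± 0.94 on the log2 scale (adjusted p = 0.17), Mt2 1.86 ± 0.40 (adjusted p = 0.058) and H2-D1 -1.83 ± 0.44 (adjusted p = 0.17). None of these 3 passed, so their changes under stimulation are not shown to differ between the drug arms.

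The last pair of tests asked whether cluster 2 responded differently from the other oligodendrocytes of the same libraries. For cisplatin in unstimulated mice (Cisplatin nonstim against PBS nonstim) 0 of 9387 genes were called (0.0%), with 300 at an unadjusted p under 0.05. The difference of the cisplatin responses, cluster 2 minus the others, was -0.15 ± 0.30 for Itgad, -0.48 ± 0.42 for Fkbp5, 0.25 ± 0.18 for Rbm3 and -0.12 ± 0.17 for Shtn1. C4b came nearest among the named genes at 1.32 ± 0.30 (adjusted p = 0.27), with a log2 fold change without stimulation of 1.90 ± 0.25 in cluster 2 and 0.75 ± 0.21 in the others. A test that does not pass does not show equal responses.

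For stimulation in cisplatin mice (Cisplatin stim against Cisplatin nonstim) 1 of 9387 was called lower (0.0107%) and 0 higher (0.0%), with 356 at an unadjusted p under 0.05. That gene was Ifi27l2a, at -2.94 ± 0.59 (adjusted p = 0.045). Stimulation in cisplatin mice gave log2 fold changes of Cdkn1a of 3.11 ± 0.26 in cluster 2, 3.09 ± 0.25 in cluster 7 and 3.42 ± 0.26 in cluster 8, and the difference from the others was 0.00 ± 0.20. Sgk3 gave 1.45 ± 0.24, 1.67 ± 0.23 and 1.25 ± 0.23 in the 3 clusters. Itih5, at 1.67 ± 0.29, 1.05 ± 0.29 and 0.69 ± 0.22, had the larger value in cluster 2, with a difference of 0.67 ± 0.31 (adjusted p = 1).

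The other oligodendrocytes, tested alone, gave 380 calls in Cisplatin nonstim against PBS nonstim, 122 for stimulation in cisplatin mice, 1133 for cisplatin in stimulated mice and 0 for stimulation in PBS mice, of 9344 genes. These counts rest on other cell numbers and depths and are not set against those of cluster 2. For Itgad in Cisplatin nonstim against PBS nonstim the 3 clusters gave 2.63 ± 0.21 in cluster 2, 2.08 ± 0.26 in cluster 7 and 3.09 ± 0.41 in cluster 8, and for Fkbp5 2.55 ± 0.29, 2.70 ± 0.46 and 2.90 ± 0.37.

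**Figure D5:**
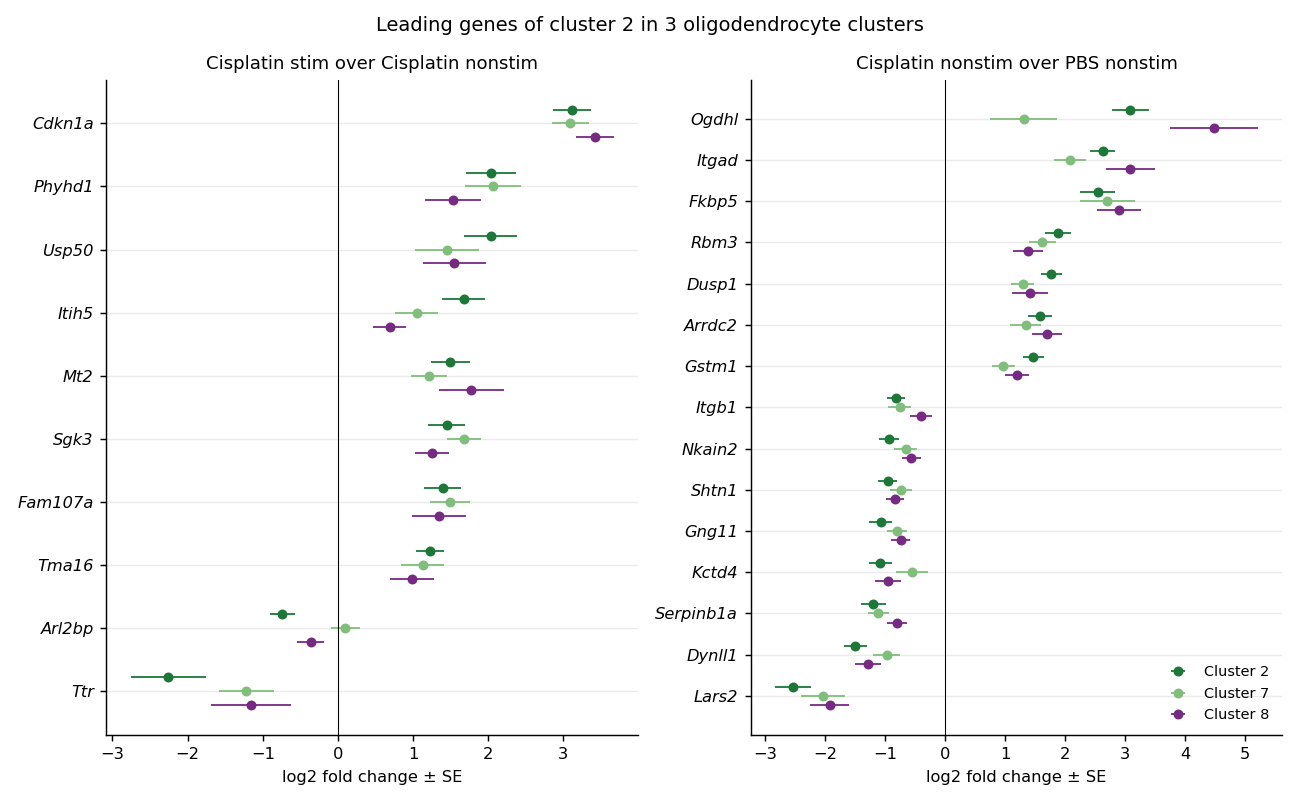
Log2 fold change with its SE for the leading genes of cluster 2, in clusters 2, 7 and 8, for Cisplatin stim over Cisplatin nonstim (left) and Cisplatin nonstim over PBS nonstim (right). In cluster 7 Arl2bp lies on the other side of 0 from cluster 2, and each of the other genes drawn has the same sign in all 3 clusters.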

How the data were processed

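Hippocampal cells were sequenced as 10x 3' v3.1 libraries, per the labels' protocols, and the submitters' processing notes name mm10 as the build, with Scanpy and Cell Ranger 5.0.0 as tools. The authors deposited raw UMI counts per cell and gene, together with cluster numbers and cell types. Spliced and unspliced totals per cell, a signal column, and a doublet score per cell were also deposited by the authors; the tool behind them is not stated in the labels or headers. The highest doublet score in the cluster was 0.0957 and no cell was removed.

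Counts were summed per library over cluster 2 cells (at least 10 cells) and tested in edgeR 4.0.16 (quasi-likelihood, TMM scaling, filterByExpr, group and batch terms, all 12 libraries) in R 4.3.3 with limma 3.58.1, with Benjamini-Hochberg adjusted p under 0.05 over all genes tested. Responses were compared between cluster 2 and the other oligodendrocytes with library as a block. DESeq2 1.42.0 was an alternative. Python 3.11.15, numpy 2.4.6 and pandas 2.3.3 did the rest, and the test was checked on simulated counts. Error bars are SE of the fit, and intervals on ratios of counts cover counting error only.

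Named genes are, by adjusted p, the first 8 called genes that were higher and the first 8 that were lower, predicted genes left out, up to 4 called members of each of 35 gene lists, and the 10 genes highest and lowest against the other oligodendrocytes (at least 50 CPM, 1 CPM added); the other members of described lists are named as their results. The members and lists were chosen with earlier results of these data known. The 20 genes that define the cluster were part of the fit and of its counts of calls, but their differences between groups are not given as results, and cluster sizes are not compared. Pooled animals in a library mean that p-values measure the spread between libraries. Same-numbered Cisplatin nonstim and PBS nonstim libraries deviated together (correlations 0.243, 0.231 and 0.191), as did PBS stim and PBS nonstim (0.155, 0.145 and 0.111). This meets the rule for pairs by the data alone, with numbers from the labels. Batch was not removed from these deviations, replicate 1 is the first batch in every group, and the part of batch in the correlations was not tested. The printed values come from the fit without the replicate block, and the block's are given where it ends a call. Some genes that the rule names are not reported here.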

Additional observations from a re-analysis of the deposited data

Results flagged for a closer look

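The change under stimulation differed between cisplatin and PBS mice in 5 genes of cluster 2, by the interaction term of edgeR's quasi-likelihood test. The log2 differences, cisplatin mice minus PBS mice, were 2.72 for Gm2000 (adjusted p = 0.0042), 2.52 for Usp50 (adjusted p = 0.037), 3.89 for Gm49207 (adjusted p = 0.046), 2.68 for Rpl10-ps3 (adjusted p = 0.046) and -4.90 for Ifi27l2a (adjusted p = 0.046). Gm2000, Gm49207 and Rpl10-ps3 share 0.904, 0.831 and 0.965 of their 31-base words with other genes, and Usp50 overlaps Gm10774 on the same strand, so their counts are uncertain. Same-strand overlaps were also annotated for genes named above, among them Itgad (Gm17831), Tubb3 (Gm20388), Dusp1 (AC122252.1, AC122252.4) and Fkbp5 (AC154912.3, AC154912.5). None of the 5 calls held in every fit that left out 1 library.

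The response to stimulation in cisplatin mice differed between cluster 2 and the other oligodendrocytes in Ifi27l2a, at -2.94 on the log2 scale (adjusted p = 0.045). The call ended without PBS stim 1, Cisplatin nonstim 2, Cisplatin stim 2 or Cisplatin stim 3.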

How the results depend on the processing

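Counts of called genes moved with several settings, and the cause was not tested. For cisplatin in unstimulated mice (418) DESeq2 gave 204, no batch term 74, the second batch alone 1065, cells of at most 10% mitochondrial UMIs 1043 and the share as covariate 0. For stimulation in cisplatin mice (24) no filter gave 59, no batch term 6, the second batch 42, the mitochondrial limit 37 and the covariate 10. For stimulation in PBS mice (4) DESeq2 gave 0 and no filter 18. For cisplatin in stimulated mice (508) no batch term gave 263, the second batch 884, the mitochondrial limit 847 and the covariate 87. For the interaction (5) DESeq2 gave 1, no filter 33, no batch term 0, the second batch 11 and the mitochondrial limit 8. The cisplatin difference between clusters (0) gave 3 against cluster 8 alone, 1 with no filter, 5 in the second batch and 1 with a cluster by batch term, which was added after seeing the data. The stimulation difference (1) gave 0 with relative log expression size factors, 0 against cluster 7 or cluster 8 alone, 2 with no filter, 7 in the second batch and 3 with that term.

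Leaving out 1 library gave 42 to 826, 16 to 41, 3 to 7, 213 to 731 and 0 to 18 calls in the 5 comparisons, and 0 to 2 and 0 to 3 in the cluster differences. Without Cisplatin stim 1 the first 3 counts were 826, 41 and 7.

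With the replicate block the 5 counts were 288, 20, 4, 452 and 4. For the pairs not treated as paired, the correlations were 0.105, 0.0654 and 0.0730 (Cisplatin stim with Cisplatin nonstim) and 0.0320, 0.0382 and 0.0180 (Cisplatin stim with PBS stim). Of the 54, 13, 4, 70 and 5 named calls, 44, 11, 4, 67 and 3 held with the block, 0, 5, 4, 29 and 5 with the covariate and 17, 7, 1, 39 and 0 in every fit without 1 library.

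Under the covariate the direction turned, without stimulation, for mt-Atp8 (0.014), Gstm7 (-0.12), Hist2h2aa1 (-0.89), Hist1h4d (1.20), Hist1h1e (1.00), AY036118 (0.14) and Gm42418 (0.10), and with it for Hist1h1e (0.16), Hist1h4d (0.47) and Gm42418 (0.063). Egr1 under stimulation in PBS mice gave -0.11 to 1.34 without 1 library. Depth limits the first batch: 3 counts are 45.7 CPM in PBS stim 1.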
